A study of Mus musculus with 8 samples.

Results

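Lhx2, Sox9, Tcf7l1, Tcf7l2, Nfatc1, Nfib, Foxc1, Foxp1, Tbx1 and Vdr encode transcription factors that are known to maintain the stem cells of the mouse hair follicle bulge. These 10 genes were chosen by name, together with every probe set of the array that is annotated to one of them alone. They make up 10 of 18193 measured genes and 35 of 45037 probe sets, and 0 further probe sets named a member together with another gene. The number of probe sets was 8 for Foxp1, 7 for Nfib, 5 for Nfatc1, 4 for Tcf7l2, 3 for Sox9, 2 each for Tcf7l1, Foxc1 and Vdr, and 1 each for Lhx2 and Tbx1. On the mouse build GRCm38.p6 the RefSeq gene bodies of the state-keeping and self-renewal factors lay as follows: Lhx2 at chr2:38339271-38369737, Sox9 at chr11:112782210-112787757 and Tbx1 at chr16:18580979-18590671. The TCF genes were Tcf7l1 at chr6:72626371-72789045 and Tcf7l2 at chr19:55741797-55933659. The remaining genes were Nfatc1 at chr18:80606205-80713071, Foxp1 at chr6:98925342-99522746, Foxc1 at chr13:31806646-31810635, Nfib at chr4:82290173-82506751 and Vdr at chr15:97854427-97908296.

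The bulge is the part of the follicle's outer root sheath in which long-lived stem cells rest between rounds of hair growth. Its transcription factors act in several ways. Some, such as SOX9 and LHX2, keep the cells in the stem cell state, others, such as NFATC1, FOXP1 and FOXC1, hold them in quiescence, and TCF7L1 and TCF7L2 bind the target genes of Wnt signalling and repress them in the absence of β-catenin. The hair germ lies just below the bulge, is derived from it and is the first to divide when a new hair starts to grow.

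The series addressed the effect of raised Runx1, a RUNX family transcription factor, on hair follicle stem cells at rest. Transgenic mice were labelled Runx1 iTG and described as Tet-on Runx1 transgenic, and the others were labelled WT. The food of both genotypes held 1 g of doxycycline per kg for 1 day, which the treatment record ties to repression of H2BGFP. The sources used here do not name the promoter that drives the transgene. Mice were labelled postnatal day 20 and in telogen, the resting phase, while replicate 2 of each Runx1 iTG population was labelled day 21. Cells positive for K15-GFP and α6-integrin were sorted by the surface protein CD34. The 4 groups, with 2 arrays each, were Runx1 iTG bulge and WT bulge (CD34+), and Runx1 iTG hair germ and WT hair germ (CD34-). The labels call the samples biological replicates. They do not say whether bulge and hair germ samples of 1 number came from the same mouse, so comparisons between populations may not rest on independent samples.

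All values below are signals of Affymetrix mouse array probe sets: the authors' deposited linear intensities after scaling each array to a common 75th percentile. A signal has no absolute unit, and signals of different genes or probe sets are not compared. Each gene is represented by its probe set with the highest mean signal. Background was set at 31.1, the 95th percentile of 27 bacterial control probe sets. All 10 representative probe sets lay above it on all 8 arrays, as did 33 of the 35 probe sets. The exceptions were 1 of 3 for Sox9, above background on 4 arrays, and 1 of 8 for Foxp1, above it on 5. Differences are on the log2 scale with their standard error (SE), from a linear model over all arrays (limma), and a gene passed when its p, adjusted over all 18193 genes by Benjamini-Hochberg, was under 0.05.

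The transgene label was borne out by the representative probe set of Runx1. Its signal was 19461 and 13699 in Runx1 iTG bulge, against 658 and 904 in WT bulge. In hair germ it was 12107 and 12882 in Runx1 iTG, against 495 and 489 in WT. The differences were 4.40 (SE 0.25, adjusted p = 0.000147, limma) in bulge and 4.67 (adjusted p = 8.46e-05) in hair germ. A second Runx1 probe set lay higher in Runx1 iTG too, by 2.17 in bulge and 2.35 in hair germ. The remaining Runx1 probe sets did not follow, at −0.40 to 0.21 in bulge and −2.77 to −1.43 in hair germ. Cd34, on which the cells were sorted, was 4902 and 8596 in Runx1 iTG bulge, and 7079 and 11208 in WT bulge. In hair germ its signal was 1.52 and 5.24 in Runx1 iTG, against 3.77 and 53.2 in WT, so that 3 of 4 arrays lay below background. In every group replicate 1 had Y-linked transcripts (Kdm5d 403 to 590.2) and little Xist (30.2 to 72.5), while replicate 2 had much Xist (9973 to 11103) and little Kdm5d (15.7 to 51.1). The spread within each group therefore includes a difference of sex.

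The label hair germ went against the markers of that compartment. Of 9 measured hair germ markers, 8 (Cdh3, Lgr5, Msx2, Gli1, Ptch1, Krt17, Hoxc13 and Dlx3) were higher in bulge averaged over the genotypes and 0 were lower. Over all genes 9.11% passed as higher and 9.17% as lower. The ninth, Shh, did not pass, and Dsg4 was not measured. Lgr5 also stands in the list of other bulge markers read below, so it is counted in both lists. Their summed signal was 21108 to 25572 in Runx1 iTG bulge and 21695 to 29998 in WT bulge, against 3621 to 4832 in Runx1 iTG CD34-negative cells and 3888 to 5926 in WT CD34-negative cells. Of 10 measured markers of the upper follicle and sebaceous gland, 8 were lower in bulge, among them the lipid enzyme genes Far2 at −4.37 and Scd1 at −2.24, while Lgr6 was higher. Their sum was 18084 to 18250.2 in Runx1 iTG bulge and 12724 to 15601 in WT bulge, against 55557 to 58889 in Runx1 iTG CD34-negative cells and 56401 to 58969 in WT CD34-negative cells. The plot of marker sums shows both patterns. The group labelled hair germ is therefore called CD34-negative cells in what follows.

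**Figure D1:**
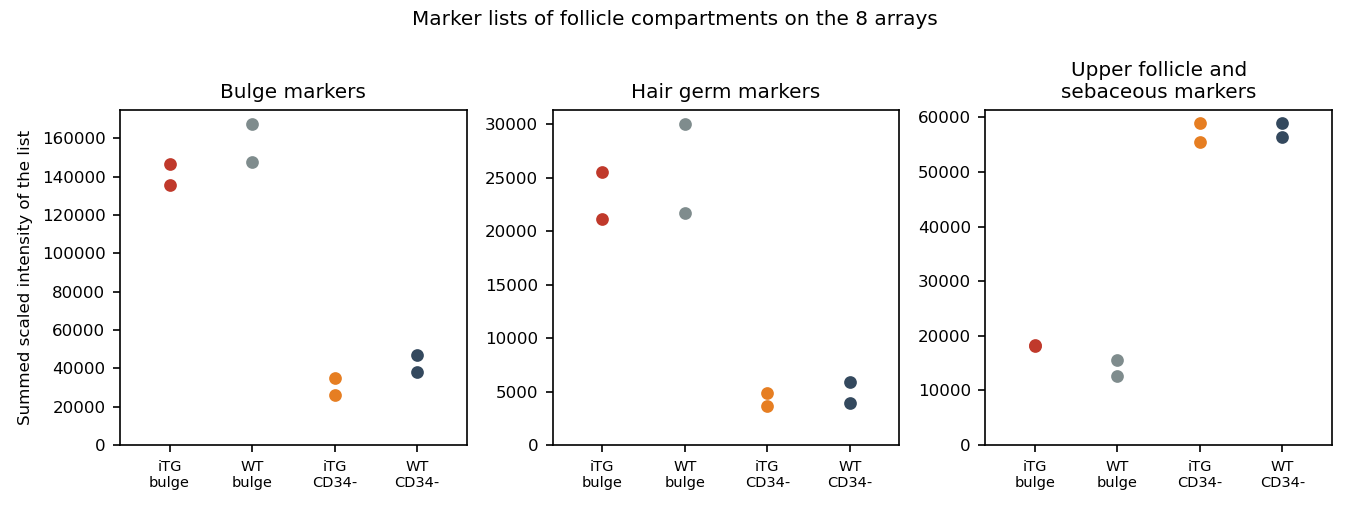
Summed scaled intensity (y axis, linear, from 0) of 3 marker lists on each of the 8 arrays, by group (x axis: Runx1 iTG bulge, WT bulge, Runx1 iTG CD34-negative, WT CD34-negative), each point 1 array. The hair germ markers sum to at least 21108 on every bulge array and to at most 5926 on every CD34-negative array, and the upper follicle and sebaceous markers run the other way.

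The proximal promoters of the factors were searched for the RUNX core motif TGTGGT on either strand (its reverse complement is ACCACA), because the transgenic mice carried Runx1. RefSeq promoter windows of 300 bases around the annotated start were at hand on GRCm38.p6 for 7 of the 10 genes (Lhx2, Tcf7l1, Tcf7l2, Foxp1, Foxc1, Vdr and Tbx1) in 12 windows. The motif was in 1 of these 12 windows (8.33%), that of Foxc1, 188 bases before the start. It was in 5506 of all 32851 windows (16.8%), and in at least 1 window of 18.9% of 27025 genes, against 1 of the 7 factors (14.3%). A match is a description of the letters and not a bound site. The 2 windows shown are those of Foxc1, the match, with the motif in capitals, and the outermost of 2 windows of Lhx2, the factor with the largest difference between the populations, which hold no match. Both lie on the plus strand, at chr13:31806396-31806695 and chr2:38339031-38339330.
Foxc1: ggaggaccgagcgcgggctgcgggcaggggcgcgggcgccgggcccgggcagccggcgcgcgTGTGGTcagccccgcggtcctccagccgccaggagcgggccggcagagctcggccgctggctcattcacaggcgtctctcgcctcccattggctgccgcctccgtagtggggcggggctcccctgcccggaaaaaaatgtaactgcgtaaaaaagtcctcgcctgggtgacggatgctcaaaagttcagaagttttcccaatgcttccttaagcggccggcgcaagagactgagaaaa
Lhx2: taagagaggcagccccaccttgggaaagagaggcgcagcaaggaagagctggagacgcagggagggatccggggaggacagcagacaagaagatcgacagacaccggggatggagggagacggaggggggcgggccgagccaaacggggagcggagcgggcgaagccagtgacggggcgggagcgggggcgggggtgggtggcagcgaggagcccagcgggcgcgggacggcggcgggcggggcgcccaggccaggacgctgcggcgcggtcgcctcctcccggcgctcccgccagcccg

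The first question was how the 10 factors divide between the CD34-positive bulge and the CD34-negative cells. Averaged over the genotypes, 9 of the 10 factors were higher in bulge and 0 were lower, while over all genes 9.11% passed as higher and 9.17% as lower. The exception was Foxc1. The median difference, bulge minus CD34-negative cells, was 1.80 over the 10 factors and 0.09 over all genes. In Runx1 iTG mice 7 of 10 passed as higher (5.26% of all genes) and in WT mice 6 of 10 did (3.79%), with medians of 2.39 and 1.28. These 2 contrasts share no arrays. All 10 factors lay above 0 in Runx1 iTG mice (52.9% of all genes) and 9 of 10 in WT mice (54.2%). The bulge arrays lay wholly above the CD34-negative arrays for 10 of 10 factors in Runx1 iTG mice (27.6%) and for 9 of 10 in WT mice (28.8%). Of the 35 probe sets, 26 passed as higher in bulge (7.39% of all probe sets) and 0 as lower (6.63%). In bulk samples, fewer cells of a type and less RNA per cell cannot be told apart. The lists of the preceding marker check moved with the same contrast, and dermal fibroblast markers did too, with 5 of 10 higher in bulge and Lum and Sox2 below background on all arrays. The fibroblast sum was 9587 to 9907 in Runx1 iTG bulge and 5330.0 to 6359 in WT bulge, against 482 to 896 in Runx1 iTG CD34-negative cells and 451 to 533 in WT CD34-negative cells. The part of these other cells in the factors' differences was not tested.

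**Figure D2:**
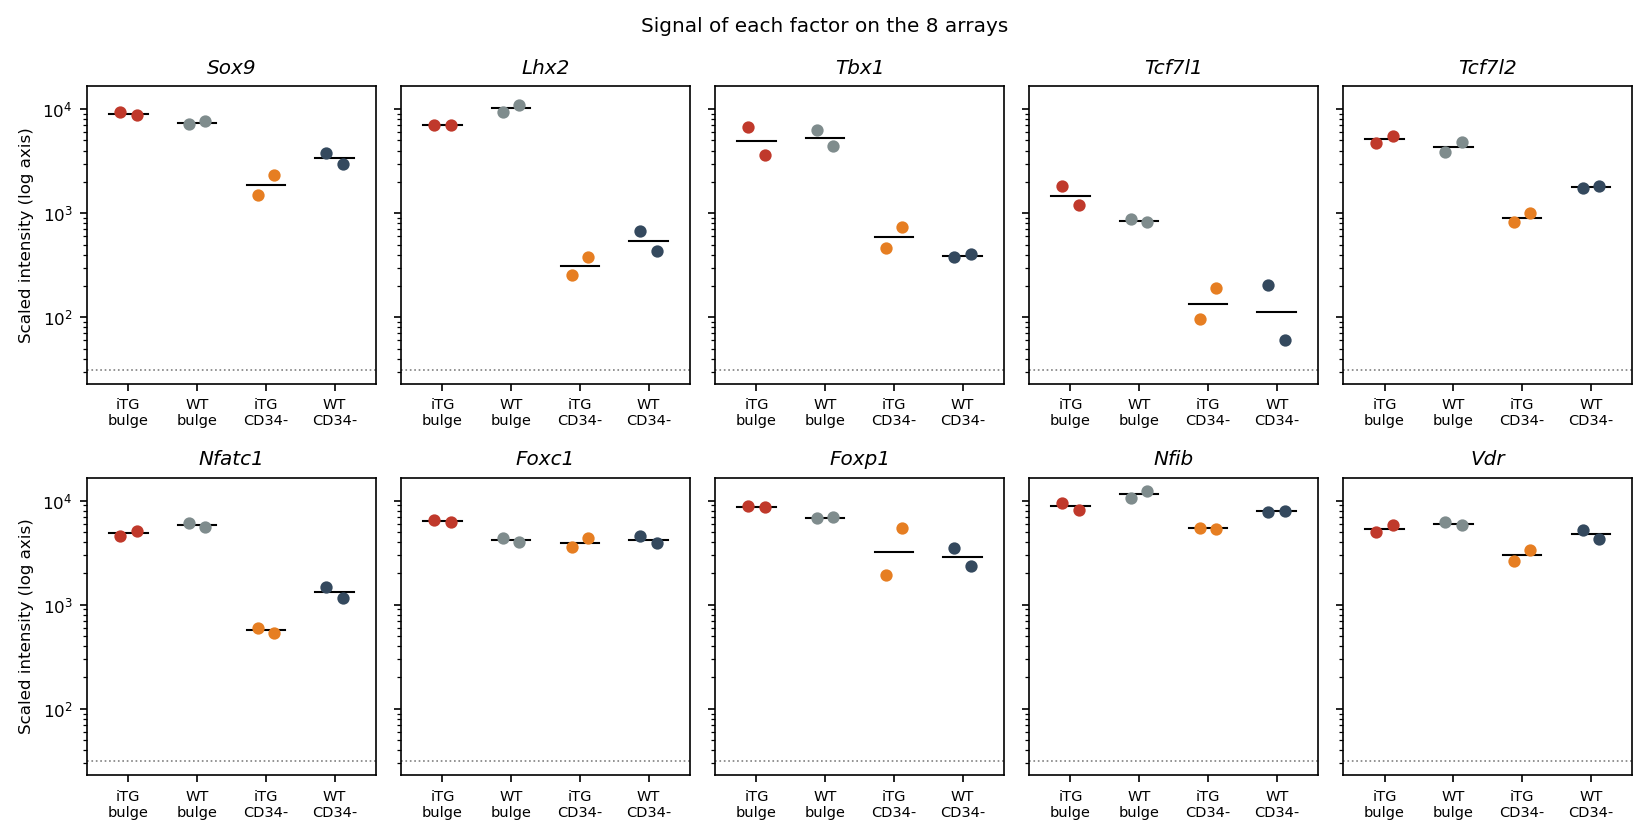
Scaled intensity (y axis, log axis) of the representative probe set of each of the 10 factors on the 8 arrays, by group (x axis), each point 1 array, each bar the geometric mean of 2 arrays and the dotted line the background of 31.1. Lhx2, Tbx1 and Tcf7l1 show the widest gaps between bulge and CD34-negative cells, and the 4 groups of Foxc1 lie closest together.

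Lhx2, a LIM homeobox factor that keeps bulge cells undifferentiated, had the largest difference. Its signal was 7077 and 7099 in Runx1 iTG bulge and 9296 and 11079.9 in WT bulge, against 255 and 383 in Runx1 iTG CD34-negative cells and 676 and 437 in WT CD34-negative cells. Every bulge array lay far above every CD34-negative array, and none of the 4 groups overlapped another. The difference averaged over genotypes was 4.36 (SE 0.20), or 20.6-fold (adjusted p = 2.31e-06, limma). It was 4.50 in Runx1 iTG mice (adjusted p = 5.82e-05) and 4.22 in WT mice (adjusted p = 8.79e-05).

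SOX9 is an HMG-box factor needed to form and keep the bulge. Sox9 signal was 9370.3 and 8789 in Runx1 iTG bulge and 7220.2 and 7665 in WT bulge, against 1485 and 2319 in Runx1 iTG CD34-negative cells and 3791 and 2978 in WT CD34-negative cells. All bulge arrays lay above all CD34-negative arrays, and again no group overlapped another. Sox9 was 3.29-fold higher in bulge on average (1.72, SE 0.18, adjusted p = 0.000165, limma), with 2.29 in Runx1 iTG mice and 1.15 in WT mice. A second Sox9 probe set passed as well, and the third, dim one did not (−0.28, adjusted p = 0.88). In WT mice alone, the Sox9 call (adjusted p = 0.024) was lost whichever 1 of the 4 WT arrays was left out, at adjusted p = 0.1 without bulge replicate 1, 0.164 without bulge replicate 2, 0.0655 without hair germ replicate 1 and 0.194 without hair germ replicate 2. With the mean of the 3 probe sets, which takes in the dim one, adjusted p was 0.127 in Runx1 iTG mice and 0.177 in WT mice.

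Tbx1, a T-box factor of the bulge tied to stem cell self-renewal, was 6666 and 3651 in Runx1 iTG bulge and 6280.4 and 4387 in WT bulge, against 466 and 742 in Runx1 iTG CD34-negative cells and 376 and 402 in WT CD34-negative cells. The bulge groups overlapped each other, and all 4 bulge arrays stood well clear of the CD34-negative arrays. In bulge Tbx1 was 10.6-fold higher on average (3.41, SE 0.24, adjusted p = 2.1e-05, limma). The difference was 3.07 in Runx1 iTG mice and 3.75 in WT mice.

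The 2 TCF factors of the Wnt pathway were both higher in bulge. Tcf7l1 had signals of 1815 and 1188 in Runx1 iTG bulge and 885 and 816 in WT bulge, against 96.0 and 189 in Runx1 iTG CD34-negative cells and 204 and 60.9 in WT CD34-negative cells. Tcf7l2 had 4739 and 5512 in Runx1 iTG bulge and 3859 and 4862 in WT bulge, against 825 and 997 in Runx1 iTG CD34-negative cells and 1738 and 1827 in WT CD34-negative cells. For both genes the bulge arrays were all above the CD34-negative arrays. The CD34-negative groups overlapped for Tcf7l1, and the bulge groups overlapped for Tcf7l2. Tcf7l1 was 9.12-fold higher in bulge on average (3.19, SE 0.40, adjusted p = 0.000473, limma) and Tcf7l2 3.7-fold (1.89, SE 0.16, adjusted p = 4.56e-05). All 2 probe sets of Tcf7l1 (2.86 to 3.19) and all 4 of Tcf7l2 (1.62 to 2.12) passed. In WT mice alone, the differences of 2.93 for Tcf7l1 (adjusted p = 0.0132) and 1.28 for Tcf7l2 (adjusted p = 0.00878) depended on single arrays. Leaving out either WT bulge array brought the adjusted p of Tcf7l1 to 0.0948 (replicate 1) and 0.12 (replicate 2), and leaving out WT hair germ replicate 2 brought it to 0.0879. In Runx1 iTG mice Tcf7l1 was lost without hair germ replicate 1 of that genotype (adjusted p = 0.052). The Tcf7l2 call in WT mice was lost without bulge replicate 2 (adjusted p = 0.096), hair germ replicate 1 (0.0598) or hair germ replicate 2 (0.0654).

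Among the factors of quiescence, NFATC1, a calcineurin-regulated factor that represses Cdk4 in bulge cells, differed most. Nfatc1 signal was 4613 and 5070.1 in Runx1 iTG bulge and 6117 and 5531 in WT bulge, against 602 and 534 in Runx1 iTG CD34-negative cells and 1475 and 1165 in WT CD34-negative cells. In this representative probe set the 4 groups formed 4 separate steps, with WT above Runx1 iTG within each population. Within bulge 4 of its 5 probe sets lay lower in Runx1 iTG and 1 lay higher (0.27). In bulge Nfatc1 was 6.15-fold higher on average (2.62, SE 0.16, adjusted p = 8.73e-06, limma), and all 5 of its probe sets passed (2.17 to 2.74). The difference was 3.09 in Runx1 iTG mice and 2.15 in WT mice.

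The forkhead factors differed from each other. Foxp1, known for inducing the quiescence factor Fgf18, was 8876 and 8629 in Runx1 iTG bulge and 6871 and 6903 in WT bulge, against 1924 and 5471 in Runx1 iTG CD34-negative cells and 3477 and 2342 in WT CD34-negative cells. The Runx1 iTG CD34-negative arrays lay far apart, and on both sides of the WT ones. Foxp1 was 2.55-fold higher in bulge on average (1.35, SE 0.29, adjusted p = 0.00966, limma), and 7 of 8 probe sets passed (0.94 to 2.74 over all 8). In neither genotype alone did it pass (adjusted p = 0.056 in Runx1 iTG and 0.101 in WT). Without Runx1 iTG hair germ replicate 2 it passed in Runx1 iTG mice (2.19, adjusted p = 0.00484), and without replicate 1 of that group the difference was 0.68 (adjusted p = 0.307). Foxc1, which is induced in activated stem cells and returns them to rest, was 6582 and 6253 in Runx1 iTG bulge and 4374 and 3993 in WT bulge, against 3548 and 4362 in Runx1 iTG CD34-negative cells and 4539 and 3930.1 in WT CD34-negative cells. Here the Runx1 iTG bulge arrays stood above all others and the other 6 arrays overlapped. The average difference of 0.35 (SE 0.15, 95% interval 0.02 to 0.67) did not pass (adjusted p = 0.143), with 0.71 in Runx1 iTG mice (adjusted p = 0.0626) and −0.02 in WT mice (adjusted p = 0.981). With quantile normalisation the average for Foxc1 was 0.50 and passed (adjusted p = 0.0371).

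Nfib and Vdr had the smallest differences among those that passed. Nfib, a nuclear factor I protein that restrains signals from bulge cells to neighbouring melanocyte stem cells, was 9441 and 8213 in Runx1 iTG bulge and 10632 and 12376 in WT bulge, against 5519 and 5377 in Runx1 iTG CD34-negative cells and 7737 and 8002 in WT CD34-negative cells. Vdr, the vitamin D receptor, which the hair cycle needs, was 5029 and 5797 in Runx1 iTG bulge and 6245 and 5816 in WT bulge, against 2641 and 3377 in Runx1 iTG CD34-negative cells and 5242 and 4323 in WT CD34-negative cells. No groups of Nfib overlapped, with WT the higher genotype in each population, and for Vdr the WT CD34-negative arrays reached into the range of Runx1 iTG bulge. In bulge Nfib was 1.54-fold higher (0.62, SE 0.14, adjusted p = 0.0128, limma) and Vdr 1.51-fold (0.60, SE 0.16, adjusted p = 0.0244). Of their probe sets, 3 of 7 for Nfib and 1 of 2 for Vdr passed. In WT mice alone neither passed (0.54, adjusted p = 0.144, for Nfib and 0.34, adjusted p = 0.43, for Vdr). The second Vdr probe set lay on the other side of 0 in WT mice (−0.17).

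The averaged calls of Foxp1, Nfib and Vdr each depended on single arrays. Without WT bulge replicate 2, adjusted p was 0.0531 for Foxp1, 0.052 for Nfib and 0.0646 for Vdr. Without WT hair germ replicate 2 it was 0.0575, 0.0512 and 0.104 for the same 3 genes. Vdr was also lost without WT bulge replicate 1 (0.071), Runx1 iTG bulge replicate 2 (0.0778) and Runx1 iTG hair germ replicate 1 (0.0968). In Runx1 iTG mice alone, Vdr (0.85, adjusted p = 0.0371) was lost whichever 1 of the 8 arrays was left out (adjusted p of 0.0573 to 0.249). The other 6 averaged calls (Lhx2, Tbx1, Tcf7l1, Tcf7l2, Nfatc1 and Sox9) were kept under every alternative run. The median of all genes moved with the scaling, being 0.09 here and −0.03 with quantile normalisation.

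**Figure D3:**
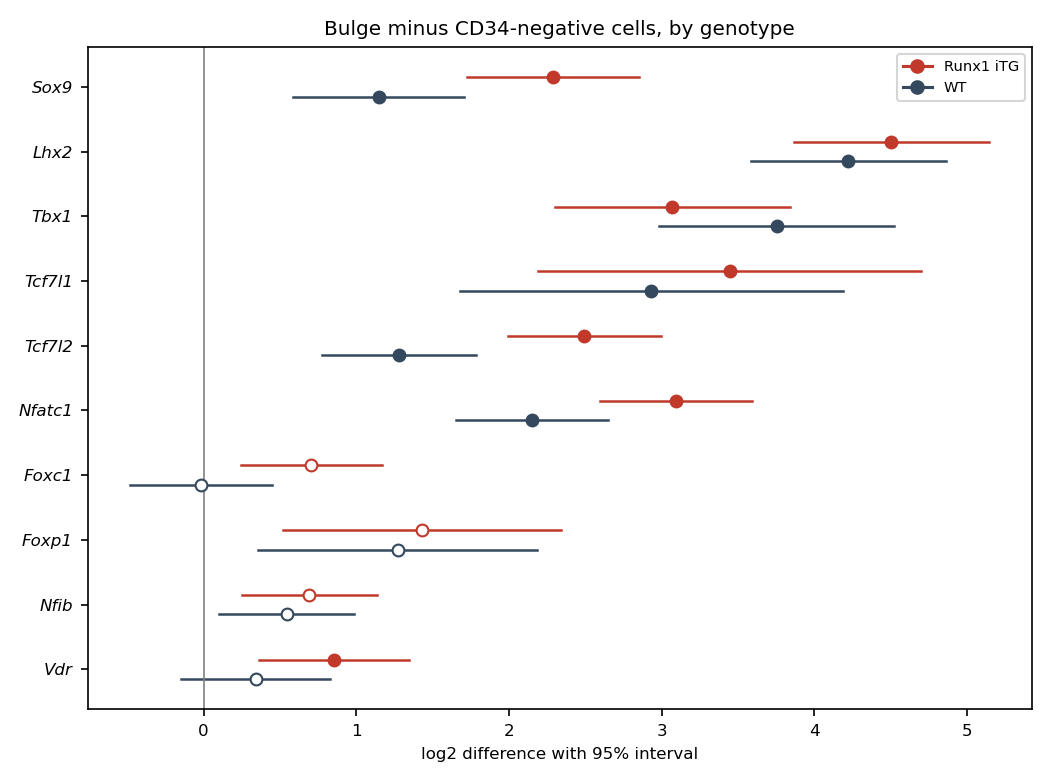
Log2 difference in signal, bulge minus CD34-negative cells (x axis), of each factor in Runx1 iTG mice (upper, red) and WT mice (lower, dark), with 95% intervals from limma, filled where adjusted p was under 0.05 and open otherwise. All 10 values in Runx1 iTG mice and 9 of 10 in WT mice lie above 0, and Lhx2 lies farthest out in both.

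The second question was whether the Runx1 transgene changed the factors within a population. In neither population, nor on average over both, did any of the 10 pass (limma). Over all genes 0.022% passed in bulge, 0.0275% in CD34-negative cells and 0.0495% on average. The number of factors with an unadjusted p under 0.05 was 1 in bulge (5.96% of all genes) and 6 in CD34-negative cells (6.78% of all genes). The lowest adjusted p of any factor over all alternatives run was 0.555 in bulge and 0.117 in CD34-negative cells.

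In CD34-negative cells 7 of 10 factors lay below 0 (47.1% of all genes), with a median Runx1 iTG minus WT of −0.60 against 0.03 for all genes. For 6 of them the Runx1 iTG arrays lay wholly below the WT arrays, as 15.8% of all genes did, and for 1 (Tbx1) wholly above, as 19.9% did. Of the 35 probe sets, 21 lay wholly below (17.0% of all probe sets), the dim one of Sox9 among them, and 2 wholly above (17.7%). The plot of genotype differences shows the values of both populations.

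**Figure D4:**
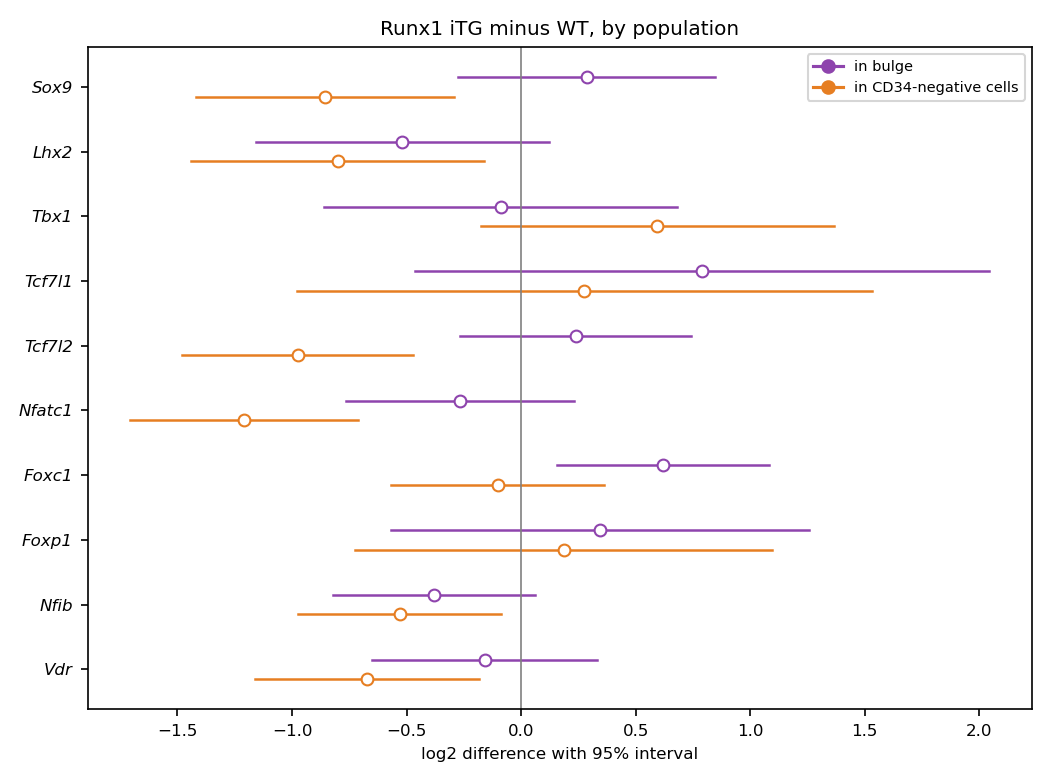
Log2 difference in signal, Runx1 iTG minus WT (x axis), of each factor in bulge (upper, purple) and in CD34-negative cells (lower, orange), with 95% intervals from limma, all open because no adjusted p was under 0.05. In CD34-negative cells 6 intervals lie wholly below 0, and in bulge only that of Foxc1 lies wholly on 1 side, above 0.

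Nfatc1 had the lowest adjusted p, with geometric mean signals of 567 in Runx1 iTG and 1311 in WT CD34-negative cells, a difference of −1.21 (SE 0.22, 95% interval −1.71 to −0.71, adjusted p = 0.151, limma). Within replicate 1 the difference was −1.29 and within replicate 2 it was −1.12. Its 5 probe sets ranged from −1.21 to −0.21, all below 0, and 3 did not overlap between the genotypes. With the mean of the 5 the value was −0.68.

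Tcf7l2 averaged 907 in Runx1 iTG and 1782 in WT CD34-negative cells, a difference of −0.97 (SE 0.23, 95% interval −1.48 to −0.47, adjusted p = 0.276, limma). All 4 of its probe sets lay below 0 without overlap (−1.61 to −0.95). Sox9 averaged 1856 in Runx1 iTG and 3360.2 in WT CD34-negative cells, at −0.86 (SE 0.25, 95% interval −1.42 to −0.29, adjusted p = 0.474), and a second probe set lay below 0 without overlap too. The dim one lay below background on 3 of these 4 arrays and is not read. The replicates of Sox9 differed in size, at −1.35 within replicate 1 and −0.36 within replicate 2, and without Runx1 iTG hair germ replicate 1 the value was −0.53. Lhx2 averaged 312 in Runx1 iTG and 544 in WT CD34-negative cells, at −0.80 (SE 0.29, 95% interval −1.44 to −0.16, adjusted p = 0.612), with −1.41 within replicate 1 and −0.19 within replicate 2. Without WT hair germ replicate 1 the Lhx2 value was −0.49, and without Runx1 iTG hair germ replicate 1 it was −0.51.

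Vdr and Nfib lay lower by smaller amounts. Vdr averaged 2986 in Runx1 iTG and 4760.4 in WT CD34-negative cells, at −0.67 (SE 0.22, 95% interval −1.16 to −0.18, adjusted p = 0.562, limma). Nfib averaged 5448 in Runx1 iTG and 7868 in WT CD34-negative cells, at −0.53 (SE 0.20, 95% interval −0.97 to −0.09, adjusted p = 0.636). All 7 Nfib probe sets lay below 0 without overlap (−0.66 to −0.29), as did both of Vdr (−1.46 to −0.67). For the representative probe sets of Foxc1 (−0.10), Foxp1 (0.19) and Tcf7l1 (0.28) the 2 replicates pointed in opposite directions. The second probe set of Foxc1 lay lower without overlap (−0.65), and that of Tcf7l1 lay higher without overlap (0.80). Of the 8 Foxp1 probe sets, 6 lay below 0 and 2 above (−0.64 to 0.19), all with overlap. Tbx1 lay at 0.59 (95% interval −0.17 to 1.36, adjusted p = 0.845, limma).

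In bulge the factors were split evenly, with 5 above 0 (52.0% of all genes) and 5 below, and a median of 0.07 (all genes 0.02). Groups did not overlap for 4 in each direction, with 17.3% of all genes higher and 16.4% lower. Foxc1 had the only unadjusted p under 0.05, with mean signals of 6416 in Runx1 iTG and 4179 in WT bulge (0.62, SE 0.21, 95% interval 0.15 to 1.08, adjusted p = 0.736, limma), and its second probe set lay at 0.12. Tcf7l1 averaged 1468 in Runx1 iTG and 849.9 in WT bulge (0.79, SE 0.56, 95% interval −0.47 to 2.04, adjusted p = 0.928), with both probe sets above 0 without overlap. Foxp1 (0.35) and Sox9 (0.29, 95% interval −0.27 to 0.85) also lay higher without overlap, and Tcf7l2 (0.24) overlapped. Of the 8 Foxp1 probe sets, 6 lay above 0 and 2 below (−0.20 to 0.59), and only the representative 1 did not overlap. A second Sox9 probe set lay higher too, while the dim one lay at −2.35 (adjusted p = 0.911 over all probe sets).

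Lower in Runx1 iTG bulge without passing were Lhx2 with means of 7088 in Runx1 iTG and 10149 in WT (−0.52, 95% interval −1.16 to 0.12), Nfib with 8806 in Runx1 iTG and 11471 in WT (−0.38, 95% interval −0.82 to 0.06), Nfatc1 (−0.27), Vdr (−0.16) and Tbx1 (−0.09). All 7 probe sets of Nfib lay below 0 in bulge too, 6 of them without overlap. Of the 5 Nfatc1 probe sets, 4 lay below 0 in bulge, 2 of them without overlap, and 1 lay above (−0.48 to 0.27). Of all 35 probe sets, 11 lay wholly lower in Runx1 iTG bulge (18.0% of all probe sets), the dim one of Sox9 among them, and 6 wholly higher (15.3%). Averaged over both populations Nfatc1 lay at −0.74 (adjusted p = 0.196, limma), Lhx2 at −0.66 and Nfib at −0.46 (adjusted p = 0.421 for both). On this average the 5 Nfatc1 probe sets ranged from −0.74 to 0.03, with 4 below 0 and 1 above. The intervals are wide, and a missed threshold does not show that the factors were alike in the 2 genotypes.

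**Figure D5:**
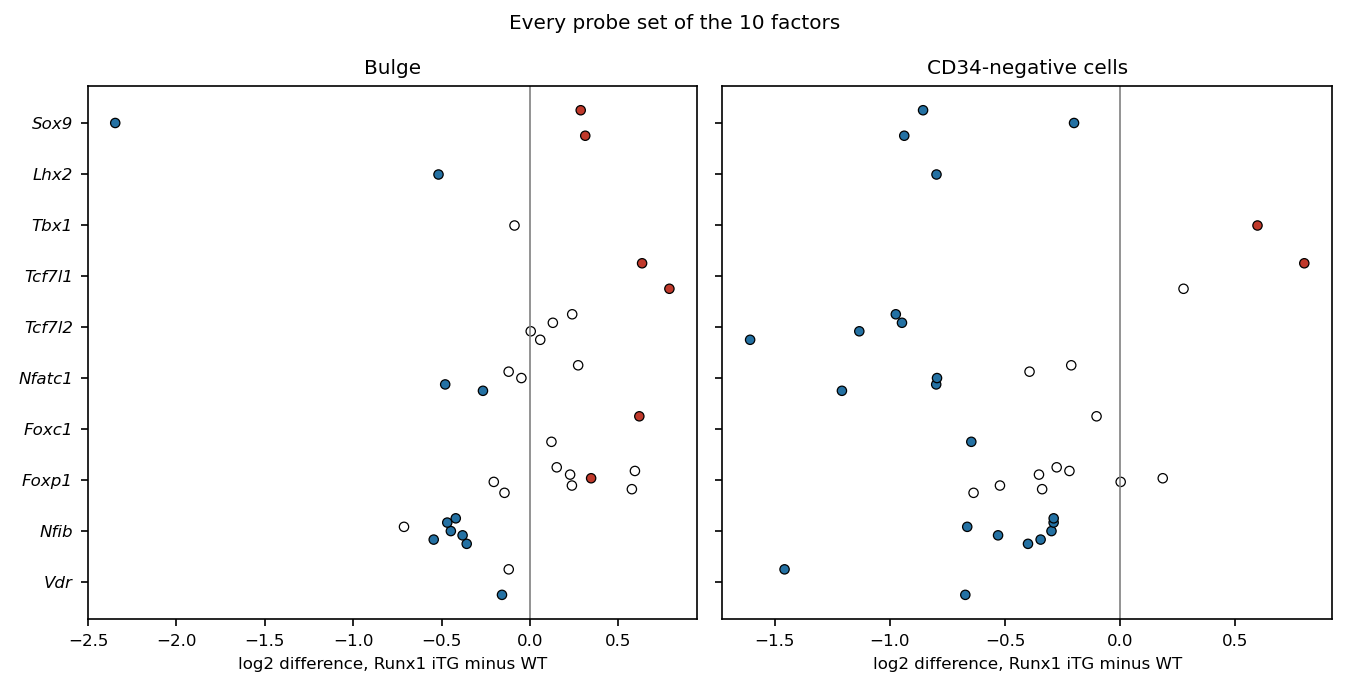
Log2 difference in signal, Runx1 iTG minus WT (x axis), of every probe set of the 10 factors in bulge (left) and CD34-negative cells (right), red where both Runx1 iTG arrays lay above both WT arrays, blue where both lay below and open where they overlapped. All probe sets of Nfib lie below 0 in both panels, and those of Tcf7l2 lie below 0 in CD34-negative cells only.

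The genotype differences of the 2 populations were set against each other by the interaction, the difference in CD34-negative cells minus that in bulge. By the representative probe sets it lay below 0 for 9 of 10 factors (50.6% of all genes), all but Tbx1 (0.68), with a median of −0.51. The lowest values were −1.21 for Tcf7l2 (SE 0.32, unadjusted p = 0.00356 in limma), −1.14 for Sox9 (SE 0.36, unadjusted p = 0.00944), −0.94 for Nfatc1 (SE 0.31, unadjusted p = 0.0136) and −0.72 for Foxc1 (SE 0.29, unadjusted p = 0.0344). None of the 10 factors and 0 of all genes (0.0%) passed. An unadjusted p under 0.05 was found for these 4 factors and for 839 of all genes (4.61%). The direction was not shared by every probe set. For Nfib 5 of 7 probe sets lay above 0 (−0.15 to 0.20), and for Tcf7l1 1 of 2 did (−0.51 to 0.17). All probe sets of Tcf7l2 (4), Nfatc1 (5), Foxc1 (2) and Vdr (2) lay below 0, as did 7 of 8 for Foxp1 and 2 of 3 for Sox9.

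Marker sums of handling and of other cell types stand beside these values. The 11 immediate-early genes, which rise when tissue is handled, summed to 33074 to 38918 in Runx1 iTG bulge, against 20382 to 23275 in WT bulge, and to 49474 to 56752 in Runx1 iTG CD34-negative cells, against 28004 to 28319 in WT CD34-negative cells, with 0 of 11 passing for genotype. The fibroblast sums given above were higher in Runx1 iTG bulge than in WT bulge, and 0 of 10 passed. The other bulge markers summed to 135619 to 146728 in Runx1 iTG bulge, against 147698 to 167613 in WT bulge, and to 26177 to 35037 in Runx1 iTG CD34-negative cells, against 38112 to 46968 in WT CD34-negative cells. In both populations the Runx1 iTG sums lay wholly below the WT ones. The upper follicle and sebaceous sums given above lay wholly higher in Runx1 iTG bulge than in WT bulge and overlapped in CD34-negative cells. Immune markers (Ptprc below background on all arrays) summed to 613 to 957 in Runx1 iTG bulge, against 710.2 to 1435 in WT bulge, and to 539 to 679 in Runx1 iTG CD34-negative cells, against 849 to 987 in WT CD34-negative cells. Endothelial markers, with Cldn5 below background everywhere, reached at most 311 in any bulge array and 144 in any CD34-negative array. The part of handling and of other cells in the factors' genotype differences was not tested.

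Genes that work with the factors were read from lists of partners, relatives and reported targets. Of 14 measured partners and corepressors, 4 were higher in bulge averaged over genotypes (9.11% of all genes). Another 2 (Tle3 and Hdac3) were lower (9.17% of all genes), and the median was 0.34. The higher ones were Ldb1, the LIM domain-binding partner of LHX2 (0.66, adjusted p = 0.015, limma), Tle2 (1.47) and Tle4 (1.38), Groucho corepressors that TCF factors recruit, and Ctbp2 (0.94). Tle4 was the only one that passed for genotype, with means of 255 in Runx1 iTG and 1143 in WT CD34-negative cells (−2.17, adjusted p = 0.0395). Tle2 lay in the same direction without passing (−1.21, adjusted p = 0.588), as did Rxra, the partner of the vitamin D receptor (−0.56, adjusted p = 0.61).

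Relatives of the same protein families were read in the same way. Of 30 measured, 3 were higher in bulge (9.11% of all genes) and 0 lower (9.17%), with a median of 0.42, and 0 passed for genotype. The count of higher relatives was thus near the share of all genes. The 3 were Nfatc4 (3.51, adjusted p = 0.00301, limma), Lef1, another HMG-box mediator of Wnt signals (1.89, adjusted p = 0.00908), and Nfat5 (1.29, adjusted p = 0.0056). Sox2, Lhx8, Tbx2, Tbx5 and Tbx18 were below background on all arrays, and Tcf7 was not measured.

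Of 26 reported targets and upstream signals of the factors, 12 were higher in bulge (9.11% of all genes) and 6 lower (9.17%), with a median of 1.03. Among the higher ones were Grem1, a BMP antagonist (6.07, 67.1-fold, adjusted p = 3.03e-06, limma), Fgf18, the reported target of FOXP1 (4.37, 20.6-fold, adjusted p = 3.28e-05), Id3 (3.36) and Wnt7b (2.88), and the BMP ligand genes Bmp2 and Bmp6. The lower ones included Cdk4, the reported target of NFATC1, with Cdk6, Ccnd2, Cdkn1a, Axin2 and Bmp4. None of the 26 passed for genotype in either population, and the lowest unadjusted p in CD34-negative cells belonged to Inhbb (1.04, adjusted p = 0.462). Of 18 other measured bulge markers, 17 were higher in bulge (9.11% of all genes), among them Cd34, on which the populations were sorted. For genotype 0 of these 18 passed (medians of −0.24 in bulge and −0.39 in CD34-negative cells).

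The likeness of expression patterns was measured as the root mean square difference of log2 signals over the 8 arrays, each gene centred on its own mean, among 15563 genes above background in at least 1 group. It was taken for the 9 factors whose group means spanned at least 1 log2 unit, that is all but Foxc1. The nearest gene was Asprv1 for Sox9 (0.135), Creb5 for Lhx2 (0.276), Cnn3 for Tbx1 (0.239), Fhl1 for Tcf7l1 (0.353), Fgd2 for Tcf7l2 (0.164), Id4 for Nfatc1 (0.208), Cdc42ep3 for Foxp1 (0.141), Cd247 for Nfib (0.0828) and Sh3bgrl3 for Vdr (0.0947). Of the factors themselves, Sox9 and Tcf7l2 were close to each other (0.197), with only 4 genes nearer to Sox9 and 3 nearer to Tcf7l2.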

How the data were processed

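Per the labels' protocols, 5 ng of RNA per sample went through the Ovation Pico WTA amplification kit (NuGEN) and onto Affymetrix mouse arrays. The authors deposited a linear intensity per probe set, with a mean of 500 after trimming 2% at each end of an array. How the probes were summarised was not given in the sources used here. The deposited intensity table held 45101 probe sets, from which 64 controls were removed. Arrays were brought to the same 75th percentile, values under 2.42 (3.48% of values) were raised to that floor, and log2 was taken. Names came from the platform annotation: 34945 probe sets had 1 gene symbol, 932 several and 9160 none, and 34741 matched a current mouse gene. Between 69% and 77.0% of probe sets lay above background on each array.

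The model, run in limma 3.58.1 under R 4.3.3, had a mean for each of the 4 groups and an intensity trend (residual degrees of freedom 4, median total 9.87). All p-values are two-sided, and adjustment ran over 18193 genes or, for probe sets, over 45037. The number of arrays limits the precision: the median SE of a difference was 0.515. With 2 arrays per group, p-values measure the spread between samples labelled biological replicates. Alternatives were another scaling, none, the mean of a gene's probe sets, an offset of 32, a filter on dim genes, no trend, day 20 arrays only, only the groups compared, a replicate block and each array left out. The fit was tested on simulated data.

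The members, the gene lists, the contrasts and the background limit were chosen with earlier results of these data known. Named genes are the members, Runx1, Cd34, Itga6 and Krt15, up to 4 genes of each list by unadjusted p, and the nearest genes by pattern. Further genes of a list, named as the members of a count, were chosen after their values were seen. Promoters are RefSeq's, on GRCm38.p6. Sequences of Nfatc1 are not reported here.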

Additional observations from a re-analysis of the deposited data

Results flagged for a closer look

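Sox9 stood on opposite sides of WT in the 2 populations, without passing in either (adjusted p = 0.943 in bulge and 0.474 in CD34-negative cells). Both Runx1 iTG bulge arrays (9370.3 and 8789) lay above both WT bulge arrays (7220.2 and 7665), and both Runx1 iTG CD34-negative arrays (1485 and 2319) lay below both WT CD34-negative arrays (3791 and 2978). The interaction was −1.14 (SE 0.36), with an unadjusted p = 0.00944 and an adjusted p = 1.0 in limma. A second bright probe set gave an interaction of −1.25 and the dim one gave 2.15. The dim probe set of Sox9 lay wholly lower in Runx1 iTG bulge (−2.35). Its signal there was 2.28, under the floor, in replicate 1 and 44.1 in replicate 2, against 51.0 and 54.0 in WT bulge. With the mean of all 3 probe sets, which takes in the dim one, the interaction was −0.08.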

How the results depend on the processing

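No factor turned its direction in a call under any alternative run, and for Runx1 iTG minus WT and the interaction 0 factors passed under every one. The number of factors higher in bulge was 5 to 7 in Runx1 iTG mice, 3 to 7 in WT mice and 6 to 9 on average when 1 array was left out, and 3 in WT mice with no intensity trend. Probe sets of the factors that passed numbered 9 with no trend and 2 with day 20 arrays only in Runx1 iTG mice (19 as reported, leave-one-out 10 to 18), 5 and 6 in WT mice (12 as reported, leave-one-out 6 to 14), and 15 and 17 on average (26 as reported, leave-one-out 15 to 23). Day 20 arrays only leaves 1 array in each Runx1 iTG group, which is assumed to vary like the others. That array is replicate 1, with Y-linked transcripts, while both replicates of each WT group stay in. Age and sex cannot be told apart under this setting.

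Over all genes, the number that passed for genotype in bulge (4) was 0 with the mean of probe sets, no trend, day 20 arrays only or only the groups compared, 2 with the offset and 8 with the filter on dim genes (leave-one-out 1 to 11). In CD34-negative cells (5) it was 0 with no trend or day 20 arrays only, 1 with the mean of probe sets or only the groups compared, 2 with quantile normalisation, 10 with the offset and 12 with the filter (leave-one-out 1 to 8). On average (9) it was 4 with the mean, 29 with the filter and 1 with no trend or day 20 arrays only (leave-one-out 2 to 11), and for the interaction it was 0 to 3 by leave-one-out. Bulge minus CD34-negative cells gave 708, 361 and 832 genes in Runx1 iTG mice with no trend, day 20 arrays only and only the groups compared (1775 as reported, leave-one-out 637 to 1532), 411, 720.0 and 752 in WT mice (1261 as reported, leave-one-out 332 to 1181), and on average 2043 with no trend and 1596 with day 20 arrays only (3326 as reported, leave-one-out 2036 to 2915). The cause was not tested. Replicate differences of 2 groups correlated at −0.0428 to 0.104 across 15595 genes, which are not independent. Such correlations cannot show whether samples of 1 number came from the same mouse. Samples of 1 number also shared the sex-linked pattern given above. With the replicate block, which is also a sex block, 15 genes passed for genotype on average, and 5 in bulge, 6 in CD34-negative cells. Of the single-factor values, 18 lost and 13 gained a call under alternatives that kept all arrays or day 20 arrays, against 346 that did neither.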

Other observations

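Some relatives of the factors had wide genotype values, for Foxc2 near background. Foxc2, a forkhead relative of Foxc1, had geometric mean signals of 4.07 in Runx1 iTG bulge and 76.2 in WT bulge (adjusted p = 0.374, limma), so that the Runx1 iTG signal lay below background. Nfia, a relative of Nfib, had means of 2027 in Runx1 iTG bulge and 4049 in WT bulge, which did not pass (adjusted p = 0.669), the same direction as the 7 probe sets of Nfib.

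Markers of the interfollicular epidermis and of differentiation, read as 1 list, stood on the bulge side. Of 10 measured markers, 8 (Krt1, Krt10, Ivl, Lor, Flg, Sbsn, Krtdap and Krt5) were higher in bulge averaged over genotypes and 1 (Ly6d) was lower, with a median of 0.98 and 0 passing for genotype. Over all genes 9.11% passed as higher in bulge and 9.17% as lower. Their summed signal was 101129 to 139495 in Runx1 iTG bulge and 130544 to 139952 in WT bulge, against 62391 to 80324 in Runx1 iTG CD34-negative cells and 90215 to 93450.2 in WT CD34-negative cells. Melanocyte markers summed to 2178 to 4574 in Runx1 iTG bulge and 2214 to 3707 in WT bulge, against 487 to 1197 in Runx1 iTG CD34-negative cells and 931 to 1064 in WT CD34-negative cells, and Dct and Mitf passed as higher in bulge.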
